A study of Bos taurus with 8 samples.

Results

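Satellite cells (SCs), the resident stem cells of skeletal muscle, were compared between phases of the cell cycle at passage 2 (P2) of culture. Cells called in the G2 or M phase (G2M) were set against cells called in G1, for the 3 donor animals whose cultures had been sorted for SCs. A cell entered the comparison when the deposited tables gave it the SC label, donor 5, 6 or 10, the P2 library and phase G2M or G1. This left 890 G2M cells and 1635 G1 cells, 2525 of the 3299 SCs of these donors at P2 and of the 36129 cells of the whole series. The other 774 SCs were called in S, the phase of DNA synthesis. Donor 5 gave 334 G2M and 529 G1 cells, donor 6 gave 203 and 692, and donor 10 gave 353 and 414.

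The study followed cells of bovine semitendinosus muscle by droplet-based single-cell RNA sequencing, from the tissue through long-term culture for cultured meat. Donor 5 was a female calf, donor 6 an adult male and donor 10 a male calf, all Belgian Blue cattle, a double-muscled breed, with no genetic change or drug treatment. Their cells were grown for 72 h in serum-free growth medium (SFGM), sorted for SCs, kept in SFGM on laminin-521 and passaged every few days. All donors of a passage were pooled and each passage was treated as 1 library, so that a passage and its library cannot be told apart, whereas G1 and G2M cells of a donor came from the same culture and library. The labels list 2 runs for P0, P2 and P5, but each has 1 count table, in which runs were not told apart.

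Proliferating cells grow through G1, copy their DNA in S, and in G2 and M assemble the spindle, attach chromosomes to it and divide. Cyclin-dependent kinases (CDKs) with their cyclins drive these steps, CDK inhibitors and the retinoblastoma (RB) family restrain them, and many mitotic genes are switched on in G2 by the MuvB, MYBL2 and FOXM1 factors. In muscle, SCs marked by PAX7 and MYF5 divide as myoblasts, and those that switch on myogenin (MYOG) leave the cycle and make the proteins of the contractile apparatus.

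The phase calls are themselves a readout, and the cells were chosen by measured values. A deposited S score and a deposited G2M score, which can fall below 0, decide the call. A cell is in G1 where both scores are below 0 and otherwise in the phase with the higher score. This rule held for 36129 of 36129 cells. G1 is thus the class left over, and the call does not tell cycling cells in G1 from cells that have left the cycle. The paper describes SC states at P2 that it proposes to be quiescent, activated and committed. The lists behind the scores are not given in the sources used here, and the scoring genes distributed with Seurat were taken in their place. They entered the fits and the adjustment of p-values with the other genes. No test of them is given, and they were left out of every count of genes passed or called. Other genes that follow the scoring genes from cell to cell differ between the groups by the way the groups were made. A p-value here weighs the size of a difference against its spread over the 3 donors, a spread partly pooled across genes. It does not tell a difference made by the choice of cells from any other. At the border, only 2, 3 and 2 G2M cells of donors 5, 6 and 10 had a G2M score under 0.05, while 64, 94 and 74 G1 cells had a higher score above -0.05. Among the 20 cells nearest the border on each side, the median deciding score was 0.129, 0.123 and 0.0950 in G2M cells and -0.0111, -0.00637 and -0.00483 in G1 cells.

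As a description of the choice, the 54 G2M scoring genes measured were all higher in G2M cells in each of the 3 donors, by a median log2 fold change (log2FC) of 4.14, and the 45 S scoring genes likewise by 2.13. CENPF, a kinetochore protein and the most abundant of the first list with TUBB4B and JPT1, stood at 8.30, 8.31 and 10.3 CPM (the gene's UMIs scaled to a fixed library total) in G1 cells of donors 5, 6 and 10 and at 917, 1096 and 850.0 CPM in G2M cells. PCNA, the sliding clamp of DNA polymerase, stood at 28.8, 27.7 and 30.1 CPM in G1 and at 234, 209 and 234 CPM in G2M. CCNE2, the cyclin of S phase entry and a member of the S list, stood at 3.09, 1.59 and 0.788 CPM in G1, at 24.2, 24.9 and 19.8 CPM in S and at 10.1, 4.55 and 5.30 CPM in G2M.

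Marker levels describe the cells that carry the SC label and do not test it. Cell types were assigned from gene expression, and ITGA7, counted below, was also used to sort SCs. The summed level of PAX7, MYF5, MYOD1, DES, ITGA7, NCAM1 and CDH15 ran from 474 to 1648 CPM in the SCs of both phases. In G1 and G2M fibro-adipogenic progenitors (FAPs) it ran from 13.3 to 20.4 CPM. These FAPs came from separate cultures of donors 4, 7 and 8 that were sorted for FAPs. Markers of FAPs were not absent from SCs: PDGFRA, DCN, LUM and ITGA5 together reached 1257, 3077 and 2287 CPM in G1 SCs and 1045, 2338 and 1378 CPM in G2M SCs, against 7996 to 18780 CPM in FAPs. Of the endothelial markers PECAM1, CDH5 and TEK 1 or 2 of 3 were at 0 in each sum of UMIs and the total was at most 0.568 CPM, and the leukocyte markers PTPRC, CD68 and CSF1R summed to at most 2.23 CPM. Mural markers (ACTA2, MYH11, CNN1 and RGS5) summed to 397.9 to 994 CPM, and to 409.6 to 1166 CPM in FAPs.

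G2M cells were deeper than G1 cells. The median number of unique molecular identifiers (UMIs, one per captured transcript) per cell was 24350 in G1 and 32126.5 in G2M in donor 5, 19437 and 24980 in donor 6, and 22821 and 33210 in donor 10, a ratio of 1.35 ± 0.09 (SD, n = 3). The median number of genes detected per cell was 3977.5 to 4327.5 in G1 and 4738 to 5179 in G2M. Each difference was in the same direction in 3 of 3 donors, for which the exact sign-flip test gives p = 0.25 (adjusted p = 0.44), the smallest p that 3 donors allow. The sums of UMIs per donor and phase, on which all gene tests rest, held 10201409 to 13974524 UMIs in G1 and 5281903 to 11660281 in G2M. Levels are therefore given relative to all UMIs (CPM, after TMM scaling for single genes), and a gene with a lower CPM may still be present in as many copies per cell. Where the scale was the number of cells instead, the median log2FC of all genes moved from -0.03 to 0.44, and changes on that scale are read against 0.44. The gene lists described below moved by nearly the same amount. Muscle fibre genes went from a median of -1.84 to -1.38 and mitotic kinases and cyclins from 3.83 to 4.30. A value below 0.44 per cell therefore largely restates a value below -0.03 per library. Per cell 6457 genes (58.4%) passed higher and 618 (5.59%) lower.

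**Figure D1:**
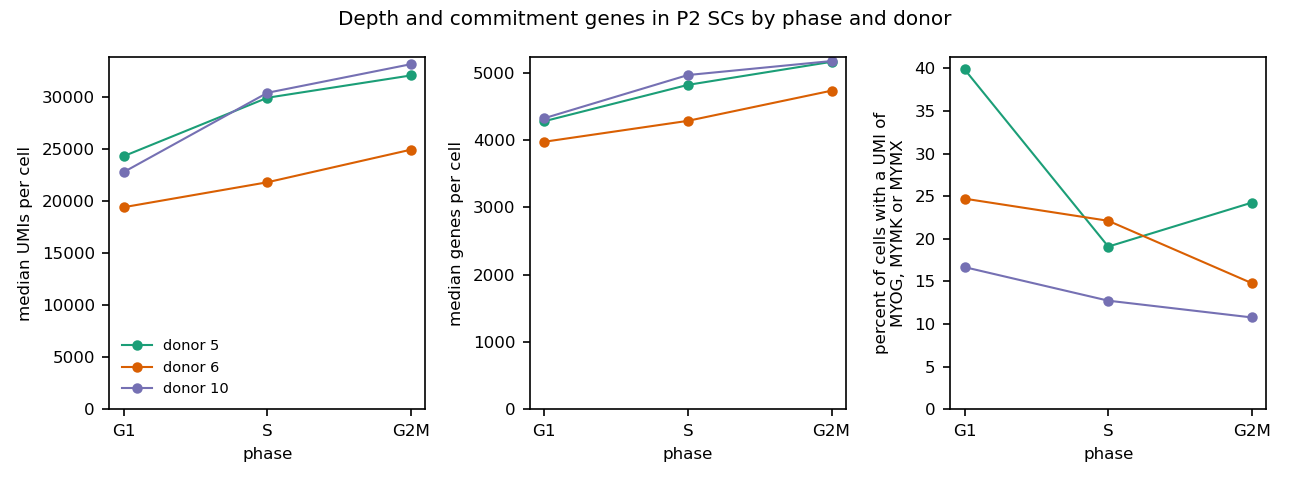
Median UMIs per cell, median genes per cell and percent of cells with at least 1 UMI of MYOG, MYMK or MYMX (y axes, from left to right) in G1, S and G2M SCs at P2 (x axis), with a line for each of donors 5, 6 and 10. UMIs and genes were highest in G2M in each donor, and the share of cells with a commitment UMI was higher in G1 than in G2M in each donor.

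Across the genome, 4510 of 11062 genes outside the scoring lists passed the test (edgeR quasi-likelihood test with donor as a block, adjusted p below 0.05), 40.8%. Of these, 2187 (19.8%) were higher in G2M and 2323 (21%) lower. With an absolute log2FC above 1 as well, the threshold used for a call below, 1001 genes (9.05%) were called, 508 higher (4.59%) and 493 lower (4.46%). An unadjusted p under 0.05 was found for 5391 genes. Of the 4510 that passed, 1001 exceeded an absolute log2FC of 1, so passing alone says little of size. Lists of genes by role are described below by their counts and medians, to be read against 19.8% higher, 21% lower and a median log2FC of -0.03 over all genes tested. Counts without donor 5 are read against 1548 genes higher and 1554 lower of 11110, and those without donor 10 against 1943 and 1922 of 11213. Where phases are said not to overlap between donors, the share of all genes with no overlap was not worked out.

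**Figure D2:**
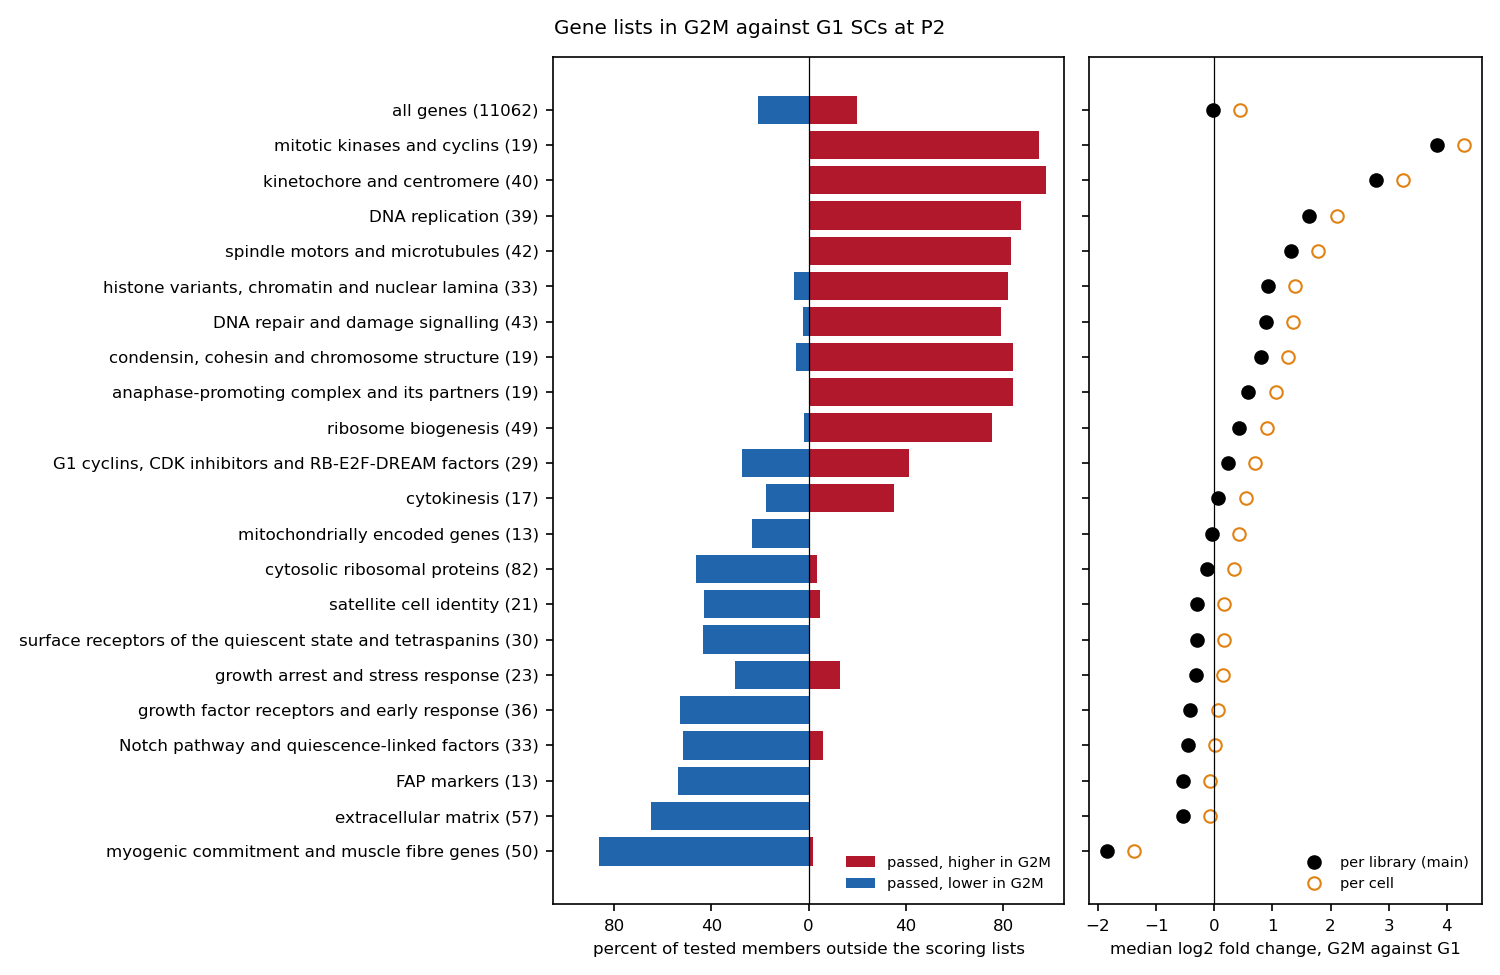
For all genes tested and 21 gene lists (rows), the percent of tested members outside the scoring lists that passed higher (red) or lower (blue) in G2M against G1 SCs at P2 (left), and the median log2FC per library (black) and per cell (open orange; right). Mitotic kinase, kinetochore and replication lists lie far to the right, cytokinesis genes near 0, muscle fibre genes far to the left, and the extracellular matrix and surface receptor lists lie left of 0 per library and near or above 0 per cell, where the median of all genes lies at 0.44.

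Mitotic kinases, cyclins and kinetochore genes were higher in G2M in nearly every member outside the scoring lists taken here, and other parts of the mitotic machinery in fewer. Genes that follow the scoring genes differ by the choice of cells, so these counts describe that choice and give it no separate support. Of the kinases and cyclins of mitosis, 18 of 19 passed higher and none lower, with a median log2FC of 3.83. The exception was ENSA, a phosphatase inhibitor of mitotic entry, at a log2FC of 0.001, named after its value was seen. PLK1, the Polo-like kinase that drives spindle assembly, was at 2.44, 2.60 and 2.56 CPM in G1 cells of donors 5, 6 and 10 and at 99.5, 106 and 114 CPM in G2M cells. CCNB1, the cyclin of mitotic entry, was at 2.44, 2.82 and 4.44 CPM against 164, 164 and 182 CPM. The groups lie far apart in each donor, and the donors within a phase lie close together. The log2FC was 5.39 ± 0.11 (SE, edgeR adjusted p = 7.9e-10) for PLK1 and 5.75 ± 0.14 (adjusted p = 1.9e-09) for CCNB1, with CCNA2, the cyclin of S and G2, at 6.29 ± 0.19 (adjusted p = 9.1e-09). For S cells against G1, 655 of 10897 genes were called (6.01%), 401 higher (3.68%) and 254 lower (2.33%). S cells stood between G1 and G2M for these 3 genes, with a log2FC against G1 of 2.77 for PLK1, 2.97 for CCNB1 and 4.47 for CCNA2. PBK, a mitotic kinase, was higher by 4.99 in G2M. FOXM1, which activates the late mitotic genes, rose from between 0.144 and 0.394 CPM in G1 to between 16.5 and 20.8 CPM in G2M, a log2FC of 6.06 ± 0.26, and MYBL2, the other activator, by 3.37 ± 0.10 from a higher level of 8.71 to 9.96 CPM.

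Kinetochore and centromere genes, which hold chromosomes to the spindle, passed higher in 39 of 40 members (median log2FC 2.78), and MAD1L1, a checkpoint protein, was the member that did not (0.39, adjusted p = 0.088 in edgeR, named after its value was seen). KNL1, the scaffold on which the spindle checkpoint assembles, was at 1.14, 1.44 and 2.27 CPM in G1 and at 132, 168 and 152 CPM in G2M, a log2FC of 6.58 ± 0.15 (edgeR adjusted p = 1.2e-09). BUB1B, a checkpoint kinase relative, was higher by 6.00 ± 0.19, SPDL1 by 4.59 and CENPN by 4.42. SGO2, which protects the cohesin at centromeres, was already at 19.5 to 22.9 CPM in G1 and reached 164 to 168 CPM in G2M. The list summed to 530.0, 541.5 and 616.9 CPM in G1 and to 4598, 5310 and 4505 CPM in G2M, scoring members included.

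Spindle motors and microtubule genes passed higher in 35 of 42 members and lower in none (median log2FC 1.32). ASPM, which focuses the spindle poles, had the highest fitted fold of all genes called higher: 1.06, 1.08 and 2.27 CPM in G1 against 251, 324 and 238 CPM in G2M, a fold of 192 (log2FC 7.59 ± 0.22, edgeR adjusted p = 1.2e-07). The kinesins KIF4A (5.97), KIF15 (5.93), KIF20A (4.52), KIFC1 (3.58) and KIF22 (2.81) were all higher. SHCBP1, which works with the central spindle, was higher by 6.54. PIF1, a DNA helicase, PRR11, TICRR, a replication initiation factor, and AUNIP, an Aurora-A partner, had only 1 to 3 UMIs in all G1 cells together. The ratio of their shares of UMIs was 160 for PIF1 (counting interval 28.1 to 6358), 114 for PRR11 (38.6 to 556), 117 for TICRR (31.9 to 972) and 99.0 for AUNIP (17.2 to 3961).

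The anaphase-promoting complex, the ubiquitin ligase that ends mitosis, moved less. With its partners, 16 of 19 members passed higher, at a median log2FC of 0.59, and the 3 that did not were ANAPC13, ANAPC2 and ANAPC7 (0.14, 0.11 and 0.24, named after their values were seen). The larger differences were in partners: UBE2S, its ubiquitin-conjugating enzyme, went from 111, 86.7 and 93.7 CPM to 601, 466 and 599 CPM (log2FC 2.52 ± 0.07, edgeR adjusted p = 3.1e-09), FBXO5, its inhibitor, was higher by 4.78 and separase (ESPL1) by 5.11. CDC23, a core subunit, was higher by 1.65 ± 0.13. FBXO5 was at 39.7 to 49.7 CPM in S and 35.3 to 38.7 CPM in G2M, with a log2FC of S against G1 of 5.08, whereas UBE2S was at 115 to 172 CPM in S (log2FC 0.61).

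Cytokinesis genes were higher in part. Of 17 members, 6 passed higher (35.3%, against 19.8% of all genes) and 3 lower (17.65%, near the 21% of all genes). The median log2FC was 0.07 (0.14 without donor 10). The 6 were CEP55, the abscission scaffold (5.87 ± 0.13), PRC1, the bundler of the central spindle (4.64), CIT (3.85), ARHGEF39 (3.70), the formin DIAPH3 (3.22) and RACGAP1 (2.49). The 3 that were lower were CHMP4B (-0.38) and PDCD6IP (-0.38), of the membrane scission machinery, and SEPTIN9 (-0.22). ARHGEF39, RACGAP1 and these 3 are named after their values were seen.

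**Figure D3:**
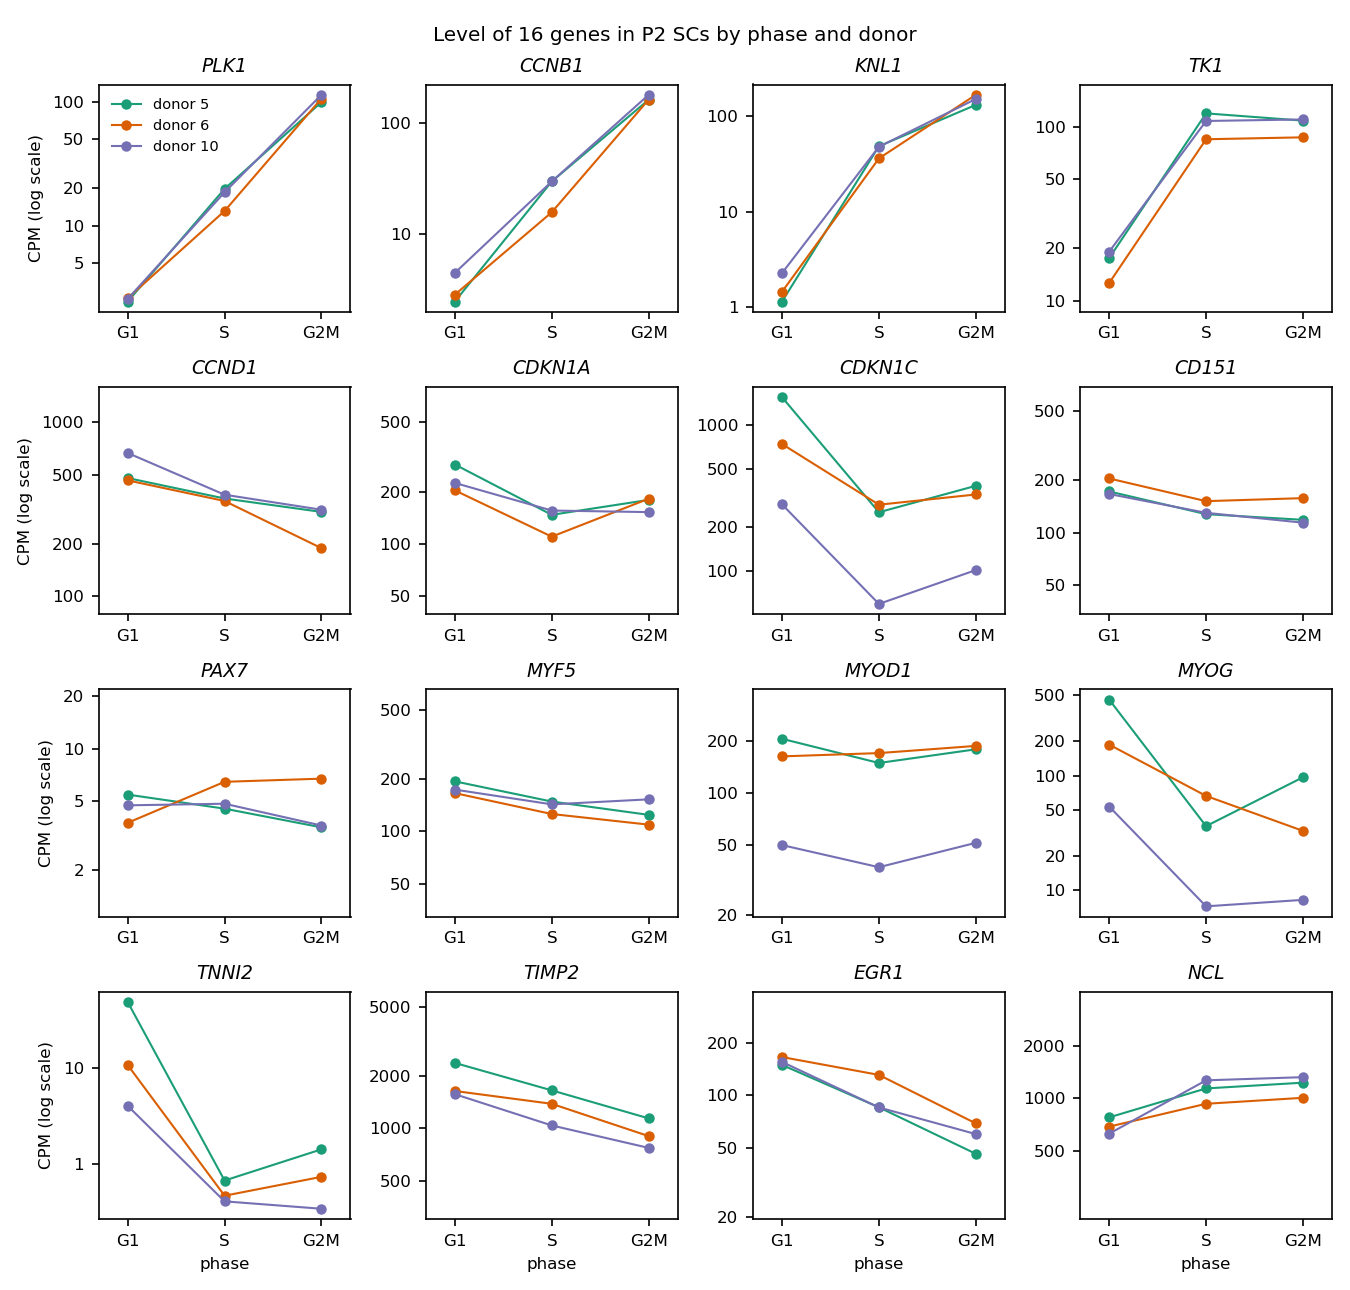
CPM on a log scale (y axis) in G1, S and G2M SCs at P2 (x axis) for 16 genes, with a line for each of donors 5, 6 and 10. All 3 donors are higher in G2M than in G1 for PLK1, CCNB1, KNL1, TK1 and NCL and lower in G2M than in G1 for CCND1, CDKN1C, CD151, MYOG, TNNI2, TIMP2 and EGR1, while PAX7 and MYOD1 show no common direction.

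Chromosome structure and replication followed. Condensin, cohesin and related genes passed higher in 16 of 19 members and lower in 1, TOP2B (-0.61, named after its value was seen), a DNA topoisomerase, with a median log2FC of 0.80. The condensin subunits NCAPH (5.29), NCAPG (3.74), SMC2 (3.71) and NCAPD3 (2.48) and the cohesin acetyltransferase ESCO2 (5.31 ± 0.14) were higher, while RAD21, a cohesin subunit present at 204 to 385 CPM in G1, was higher by 0.51 ± 0.08. Histone variant, chromatin and lamina genes passed higher in 27 of 33 members and lower in H2AJ (-0.72) and H3-3A (-0.42), histone variants made outside S phase, both named after their values were seen. Lamin B1 (LMNB1) went from 14.3, 13.1 and 13.3 CPM to 169, 181 and 140 CPM (log2FC 3.59 ± 0.11, edgeR adjusted p = 2.9e-09). Lamin B2 was higher by 2.58, the histone chaperone ASF1B by 4.75 and HMGB3 by 3.30. H3C7, a replication-dependent histone H3 gene, was higher by 6.00 ± 0.23, but its close copies make the assignment of its reads uncertain.

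DNA replication genes outside the scoring list passed higher in 34 of 39 members at a median log2FC of 1.64 in G2M, and in 37 of 40 at 1.96 in S, where 15.9% of all genes passed higher. TK1, the thymidine kinase of the salvage pathway, was at 17.6, 12.6 and 19.1 CPM in G1, 119, 84.6 and 108 CPM in S and 108, 86.8 and 110 CPM in G2M. Its log2FC against G1 was 2.68 in S and 2.65 ± 0.10 in G2M, and only the G1 donors stood apart. MCM3, of the replicative helicase, was at 6.64 to 8.57 CPM in G1, 117 to 150 CPM in S and 64.3 to 80.7 CPM in G2M, and DBF4, which activates the helicase, at 13.1 to 14.2, 26.3 to 36.1 and 66.8 to 78.4 CPM. DNA repair genes passed higher in 34 of 43 members, with a median log2FC of 0.89, among them POLQ (5.03), BRCA2 (3.47), BARD1 (3.17) and BRCA1 (3.16), all higher in S as well (4.27, 3.97, 3.97 and 3.33). TP53BP1 was the only repair gene that passed lower (-0.30, named after its value was seen).

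The regulators of G1 moved both ways. Of 29 G1 cyclins, CDK inhibitors and factors of the RB, E2F and DREAM complexes, 12 passed higher (41.4%) and 8 lower (27.6%). Over all genes these shares were 19.8% and 21%, so the share passing lower was not far above that of all genes. The median log2FC was 0.23, and 0.11 without donor 5. The D-type cyclins, which carry mitogen signals to RB, were lower in G2M in each donor: CCND1 went from 478, 463 and 666 CPM to 305, 189 and 314 CPM (log2FC -0.99 ± 0.12, edgeR adjusted p = 0.00029), CCND3 from 409, 343 and 328 CPM to 187, 216 and 136 CPM (-1.02 ± 0.12, adjusted p = 0.00031) and CCND2 from 792, 410 and 615 CPM to 600.5, 223 and 357 CPM (-0.68 ± 0.09, adjusted p = 0.00042). For CCND1 and CCND3 the lowest G1 donor lay above the highest G2M donor, whereas for CCND2 the groups overlapped because donors differed by more than phases. Per cell the log2FC was -0.52 and -0.55 for CCND1 and CCND3, and -0.21 for CCND2, each below the 0.44 of all genes. S cells lay between (log2FC -0.51, -0.53 and -0.37 for CCND1, CCND3 and CCND2). CCNE1, the cyclin of the G1 to S step, passed in S (1.42, adjusted p = 0.00038) but not in G2M (0.05 ± 0.27, adjusted p = 0.90).

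Among the CDK inhibitors, CDKN1C (p57) had the largest drop and a wide spread between donors: 1537, 737 and 286 CPM in G1 and 383, 334 and 102 CPM in G2M, a log2FC of -1.54 ± 0.16 (edgeR adjusted p = 0.00069). It was lower in 3 of 3 donors although the groups overlapped, with donor 10 in G1 below donors 5 and 6 in G2M, and it did not pass without donor 10 (-1.54, adjusted p = 0.19). CDKN1A (p21), an inhibitor of CDKs, went from 286, 203 and 224 CPM to 179, 182 and 152 CPM (-0.46 ± 0.10, adjusted p = 0.0058), with a log2FC per cell of 0.01. CDKN1B (p27) did not pass (0.32 ± 0.12, adjusted p = 0.056). CDKN3 (4.18), CDKN2D (2.01) and CDKN2C (1.87) passed higher, as did the RB relative RBL1 (1.57). Of these, CDKN2D differed little between S and G1 (0.34, adjusted p = 0.33 in edgeR) whereas RBL1 passed in S (1.78).

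Of 23 genes of growth arrest and the stress response, 3 passed higher, the translesion polymerase POLH (2.19 ± 0.13) with BAX (0.24) and DDB2 (1.05), the latter pair named after their values were seen. In the other direction 7 passed lower: SESN3, a stress-induced sestrin, at 2.60, 2.38 and 3.94 CPM in G1 and 0.265, 0.364 and 0.253 CPM in G2M (-3.41 ± 0.39, edgeR adjusted p = 8.1e-05), the antiproliferative BTG1 (-0.68), GADD45G (-1.01), and CDKN1A, FAS, GADD45A and TP53INP1 between -0.39 and -0.71. The median over the list was -0.31 per library (-0.20 without donor 10), below that of all genes. Per cell it was 0.16, which restates this on the other scale.

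Genes of SC identity differed in part. Of 21 tested, 1 passed higher, EYA1 (0.40, named after its value was seen), 9 passed lower and 11 did not pass, with a median log2FC of -0.30 per library (-0.17 without donor 5) and 0.17 per cell. PAX7, the transcription factor that defines SCs, was low in both phases, at 5.45, 3.75 and 4.73 CPM in G1 and 3.54, 6.73 and 3.62 CPM in G2M, and did not pass (-0.08 ± 0.28, edgeR adjusted p = 0.84). MYOD1, the factor of activated myoblasts, stood at 205, 162 and 50.2 CPM against 178, 186 and 51.7 CPM (0.02 ± 0.09, adjusted p = 0.86). For both, donors moved in different directions, and for MYOD1 donor 10 lay at about the same low level in both phases. MYF5 was lower in CPM, from 194, 166 and 174 CPM to 124, 109 and 153 CPM (-0.46 ± 0.09, adjusted p = 0.0022), with a log2FC per cell of 0.01. ITGA7, the laminin receptor used to sort SCs, was lower too (-0.35 ± 0.07, adjusted p = 0.0028, and 0.12 per cell). Per cell both lay below the 0.44 of all genes, and CDH15 (M-cadherin) did not pass (-0.27 ± 0.18, adjusted p = 0.27).

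Of the identity genes 2 were called lower, DES and CHODL, a lectin-like membrane protein that was at 0.0842 to 0.972 CPM in G2M (-1.54 ± 0.40, edgeR adjusted p = 0.012, named after its value was seen). DES, the muscle intermediate filament protein, went from 732, 192 and 100.2 CPM to 287, 46.8 and 32.1 CPM (-1.64 ± 0.12, edgeR adjusted p = 9.4e-06). NCAM1, an adhesion molecule of myoblasts and myotubes, went from 247, 154 and 90.0 CPM to 111, 103 and 52.7 CPM (-0.83 ± 0.11, adjusted p = 0.00022). DES and NCAM1 were lower in each donor, with donor 5 highest and donor 10 lowest in each phase. MEGF10 (-0.93) and TCF12 (-0.69) passed lower too.

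Commitment and muscle fibre genes were the list with the lowest median. Of 50 tested, 43 passed lower, 34 of them called, and 1 higher, TPM3 (0.38, named after its value was seen), a tropomyosin also made by non-muscle cells. The median log2FC was -1.84 per library and -1.38 per cell. MYOG, the factor of myoblast differentiation, was at 458, 186 and 53.6 CPM in G1 and 96.5, 32.9 and 8.25 CPM in G2M (-2.42 ± 0.10, edgeR adjusted p = 4.3e-08). It was lower in each donor, while the donors themselves differed so much that donor 10 in G1 lay below donor 5 in G2M. In S cells the log2FC was -2.64 but did not pass (adjusted p = 0.091), with donor 6 at 66.4 CPM beside 36.2 and 7.25 CPM.

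The sarcomere genes went further. TNNI2, the fast troponin I, was at 49.6, 10.8 and 4.04 CPM in G1 and 1.41, 0.728 and 0.337 CPM in G2M (-4.69 ± 0.26, edgeR adjusted p = 2.8e-07). ACTA1, skeletal actin, was at 299, 152 and 72.5 CPM against 15.8, 2.37 and 1.94 CPM (-4.75 ± 0.27, adjusted p = 4.6e-05), and CKM, muscle creatine kinase, at 51.3, 16.2 and 9.86 CPM against 3.62, 0.364 and 0.842 CPM (-3.89 ± 0.20, adjusted p = 2.0e-07). For these 3 genes every G1 donor lay above every G2M donor. CASQ2 (-4.98), TNNT3 (-4.90), ACTN2 (-4.82), TRIM54 (-4.69), MEF2C (-4.37) and CACNG1 (-4.28) belong to the same apparatus or its control, and LRRN1 (-4.30) is a membrane protein. MYOM2, LMOD2 and IGSF23 had 1 UMI each in all G2M cells against 117, 66 and 54 in G1, ratios of 88.7 (counting interval 15.6 to 3531), 50.0 (8.67 to 2005) and 40.9 (7.04 to 1646). SERPINA1, a protease inhibitor, had 0 UMIs in G2M against 120 in G1 and was at least 30.3-fold lower, with the floor of 3 UMIs set over all G2M cells.

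The share of cells with a UMI of MYOG, MYMK or MYMX was lower in G2M in each donor. It was 39.9%, 24.7% and 16.7% of G1 cells and 24.2%, 14.8% and 10.8% of G2M cells in donors 5, 6 and 10, although G2M cells were deeper, a difference of -10.5 ± 4.89 percentage points (SD, n = 3, exact sign-flip p = 0.25). In FAPs of the same library, which should lack these genes, it was 6.03 to 9.63% of G1 cells and 7.07 to 13.4% of G2M cells, at median depths of 19502 to 28380 and 23436 to 31781 UMIs. The share of donor 10 in G2M thus lay within that background. In cells thinned to 10000 UMIs, leaving out 16 to 67 shallower G1 and 5 to 12 shallower G2M SCs per donor, it was 32.0%, 18.2% and 10.6% of G1 SCs and 16.8%, 8.08% and 5.26% of G2M SCs, against 2.70 to 4.55% and 2.19 to 5.26% in FAPs. Taking out cells with such a UMI therefore also takes out cells with background UMIs, and deeper cells more readily. Without those cells 14 of the 34 fibre genes still tested passed lower and 2 higher, and the median was -0.45. In that fit 2391 of all 10600 genes passed lower and 2237 higher. The other lists changed less: 39 of 56 extracellular matrix genes and 8 of 19 identity genes passed lower in the cells that remained, and 872 genes were called. Single genes moved more: ACTA1 was at -0.74 (edgeR adjusted p = 0.082), CDKN1C at -0.71 (adjusted p = 0.19) and ITGA7 at -0.08 (adjusted p = 0.40), and none of these passed. DES (-0.82), NCAM1 (-0.66), MYF5 (-0.52), CCND1 (-1.02), TIMP2 (-0.91), CD151 (-0.47) and EGR1 (-1.55) still passed lower, and PLK1 was at 5.26.

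Genes of the Notch pathway and of quiescence passed lower in 17 of 33 members and higher in 2, KLF6 (0.26, named after its value was seen) and NFIB (0.53). The median log2FC was -0.45 per library, and per cell it was 0.02, below the 0.44 of all genes. Without donor 5 the counts were 9 lower and 0 higher. The ligand JAG1 was at 5.21, 5.85 and 6.60 CPM in G1 and 1.5, 2.91 and 2.02 CPM in G2M (-1.52 ± 0.23, edgeR adjusted p = 0.00059), with no overlap. The receptors NOTCH2 (-0.67 ± 0.11, adjusted p = 0.00072) and NOTCH3 (-0.72 ± 0.18, adjusted p = 0.017) were lower in each donor with overlapping groups. Per cell they were at -0.19 and -0.25. NOTCH3 did not pass without donor 5 (-0.57, adjusted p = 0.095) or without donor 10 (-0.56, adjusted p = 0.10). TXNIP, an inhibitor of glucose uptake and thioredoxin, was lower by 1.15 and CITED2 by 0.84 on the log2 scale.

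Surface receptors and tetraspanins linked to the quiescent state passed lower in 13 of 30 members and higher in none per library. Per cell 11 passed higher, a smaller share than the 58.4% of all genes, and 2 lower. CD151, a tetraspanin that binds laminin receptors, went from 173, 205 and 167 CPM to 119, 158 and 114 CPM (-0.48 ± 0.08, edgeR adjusted p = 0.00080), each G1 donor above each G2M donor, and its log2FC per cell was -0.01. CD63 (-0.46) and CD81 (-0.43) moved alike, with 0.01 and 0.04 per cell, all 3 below the 0.44 of all genes. The integrin ITGB5 was lower by 0.77 ± 0.10 per library and by 0.30 per cell.

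Extracellular matrix genes passed lower in 37 of 57 members, 6 of them called, and higher in none, with a median log2FC of -0.54 per library. Per cell the median was -0.07, below the 0.44 of all genes, with 14 passing lower and 8 higher. TIMP2, an inhibitor of matrix metalloproteinases, had the smallest p of the list: 2380, 1642 and 1574 CPM in G1 and 1143, 904 and 774 CPM in G2M (-0.97 ± 0.06, edgeR adjusted p = 8.6e-07), with no overlap and a log2FC per cell of -0.50. Laminin alpha 2 (LAMA2) was lower by 1.35 ± 0.16 (adjusted p = 8.7e-05) and CCN1, a matricellular protein, by 0.88 ± 0.09. COL1A1, a collagen of fibroblasts, went from 1388, 3049 and 628 CPM to 824, 1656 and 279 CPM (-0.92 ± 0.09, adjusted p = 5.9e-05).

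FAP markers were lower in part. Of 13 tested, 7 passed lower and none higher, with a median of -0.54 per library and -0.07 per cell. The list shares COL1A1, COL3A1, DCN, LUM and FBLN1 with the matrix list. Of the 8 that it does not share, 3 passed lower, PDGFRA, APOD (-1.62) and GSN (-1.24), the latter pair named after their values were seen. PDGFRA, the receptor that defines FAPs, went from 19.2, 53.9 and 28.3 CPM to 12.8, 30.6 and 13.0 CPM (-0.84 ± 0.13, edgeR adjusted p = 0.00052), and DCN (decorin) from 845, 2332 and 1604 CPM to 644, 1715 and 915 CPM (-0.54 ± 0.09, adjusted p = 0.0023). The sum of the 15 markers was 4791, 10710 and 5819 CPM in G1 and 3075, 7272 and 2716 CPM in G2M, lower in each donor. TCF21 had no UMI in either phase, and CD34 had 2 UMIs in G1 and 0 in G2M. Among FAPs themselves, 31 of 60 matrix genes also passed lower in G2M and 1 higher, where 16.3% and 15.7% of all genes did. Their part in the result for SCs was not tested. CLDN5, an endothelial junction protein, passed lower as well (-1.74 ± 0.19). The other endothelial marker tested did not pass (-0.12), and 5 of 10 were at 0 in each phase. Of 7 mural markers CSPG4 (-1.71 ± 0.47), MYH11 (-1.29 ± 0.33) and NOTCH3 passed lower, and the other 4 did not pass, at values up to 0.54. The 10 mural markers summed to 862.5, 891.7 and 564.6 CPM in G1 and 1050, 937.7 and 431.6 CPM in G2M, higher in donors 5 and 6 and lower in donor 10. Without donor 5 CSPG4 (-1.02, adjusted p = 0.15) and MYH11 (-1.30, adjusted p = 0.062) did not pass in edgeR. None of the 3 leukocyte markers tested passed: CD14 was at -0.25 ± 0.33, CD163 at 0.07 ± 0.29 and CD68 at 0.28 ± 0.34.

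Growth factor receptors and early response genes passed lower in 19 of 36 members and higher in none per library, with a median of -0.41, and the median per cell was 0.06, below the 0.44 of all genes. Without donor 5, 11 of 37 passed lower. EGR1, an early response transcription factor, was at 149, 166 and 156 CPM in G1 and 46.1, 69.0 and 59.9 CPM in G2M (-1.44 ± 0.09, edgeR adjusted p = 1.2e-06). FOS (-1.33), JUNB (-1.14) and the ligand EREG (-0.80) were lower too. For EGR1, FOS and JUNB every G1 donor lay above every G2M donor, and all 4 were below 0 per cell (-0.97, -0.86, -0.67 and -0.33).

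Assembly factors of the ribosome were higher in G2M, while many of its proteins were slightly lower in CPM. Ribosome biogenesis genes passed higher in 37 of 49 members, and in 22 of 49 without donor 5, with a median log2FC of 0.43. In the fit of all 3 donors 1 passed lower, UTP14A (-0.32, named after its value was seen). NCL (nucleolin) went from 777, 687 and 626 CPM to 1229, 1006 and 1322 CPM (0.77 ± 0.08, edgeR adjusted p = 7.8e-05), and IMP4 (1.01), DKC1 (0.95) and FBL, fibrillarin, (0.77) were higher. Donor 6 was lowest in G2M for each of these 4 genes. Cytosolic ribosomal proteins passed lower in 38 of 82 members per library, by small amounts (median -0.12), with RPS27 (-0.26), RPLP1 (-0.23), RPL10 (-0.22) and RPS2 (-0.20) the clearest, while per cell 81 of 82 passed higher, at a median of 0.35 that lay below the 0.44 of all genes. The 3 that passed higher per library were RPL26L1, RPL7L1 and RPS4Y1 (0.39, 0.36 and 0.42, named after their values were seen), copies whose reads can be shared with their relatives. By DESeq2, 4 ribosomal protein genes passed lower, and 6 in the fit without donor 5, so the count of 38 is not firm. Mitochondrially encoded genes passed lower in 3 of 13 (23.1%, near the 21% of all genes), and in 1 of 13 without donor 5 or without donor 10. The 3 were COX1 (-0.25), ND1 (-0.21) and COX2 (-0.16), with ATP6 at -0.15 ± 0.06 (edgeR adjusted p = 0.054). Per cell all 13 passed higher, at a median of 0.42.

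The same comparison was made in cells that the choice above did not use, but that were split into phases by the same score rule. Genes that follow the scoring genes recur by the way the groups were made, so the overlaps at P5 and P0 give no separate support. At P5, 3016 SCs of the same donors carried deposited phases, and 577 of 10343 genes were called (5.58%), 312 higher (3.02%) and 265 lower (2.56%). Of the P2 genes tested at both passages, 286 of 425 called higher at P2 were called higher at P5, 67.3% of the P2 genes and 92.9% of the P5 genes. Among those called lower the overlap was 153 of 408, 37.5% of the P2 genes and 60.0% of the P5 genes. The sign was the same for 421 of 425 and for 400 of 408 genes, and the share over all genes was not worked out. At P5 the log2FC was 4.60 for PLK1, 6.34 for CCNB1, 8.68 for ASPM and 7.00 for KNL1. Among fibre genes ACTA1 was at -1.82, MYOG at -1.75 and TNNI2 at -2.80, and the list passed lower in 34 of 49 and higher in 3 at a median of -0.78, where 16.1% of all genes passed lower and 13.8% higher. Genes passing at P5 fell from 3100 to 1619 without donor 10. Matrix genes passed lower in 43 of 56 at P5, with a median of -0.69. ITGA7 (0.29, adjusted p = 0.093 in edgeR) did not pass, and identity genes passed higher in 4 and lower in 4 of 20, not far from the shares of all genes.

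At P0, 72 h after isolation and before any sort, SCs of 5 other donors (1, 4, 7, 8 and 9) had at least 20 cells in both phases, a comparison added after the results were seen. Here 352 of 7949 genes were called (4.43%), 235 higher (2.96%) and 117 lower (1.47%). Of 358 genes called higher at P2 and tested at P0, 217 were called there, 60.6% of the P2 genes and 92.7% of the P0 genes, and of 158 called lower 42 were, 26.6% and 38.5%. For PLK1 (3.24), CCNB1 (3.13), ASPM (3.70) and KNL1 (3.59) the log2FC was smaller in value than at P2. Only 14 fibre genes were abundant enough to test, of which 2 passed lower and 2 higher, close to the shares of all genes (16.7% and 14.5%). ITGA7 (0.48, adjusted p = 0.0033), MYF5 (0.47, adjusted p = 0.0020) and NCAM1 (0.41, adjusted p = 0.024) passed higher in G2M at P0 in edgeR, opposite to P2, while CDKN1C (-0.92, adjusted p = 0.036), TIMP2 (-0.49) and CITED2 (-1.64) passed lower as at P2. The difference between passages was not tested, and P0 differs from P2 in donors, coating, sort and library.

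**Figure D4:**
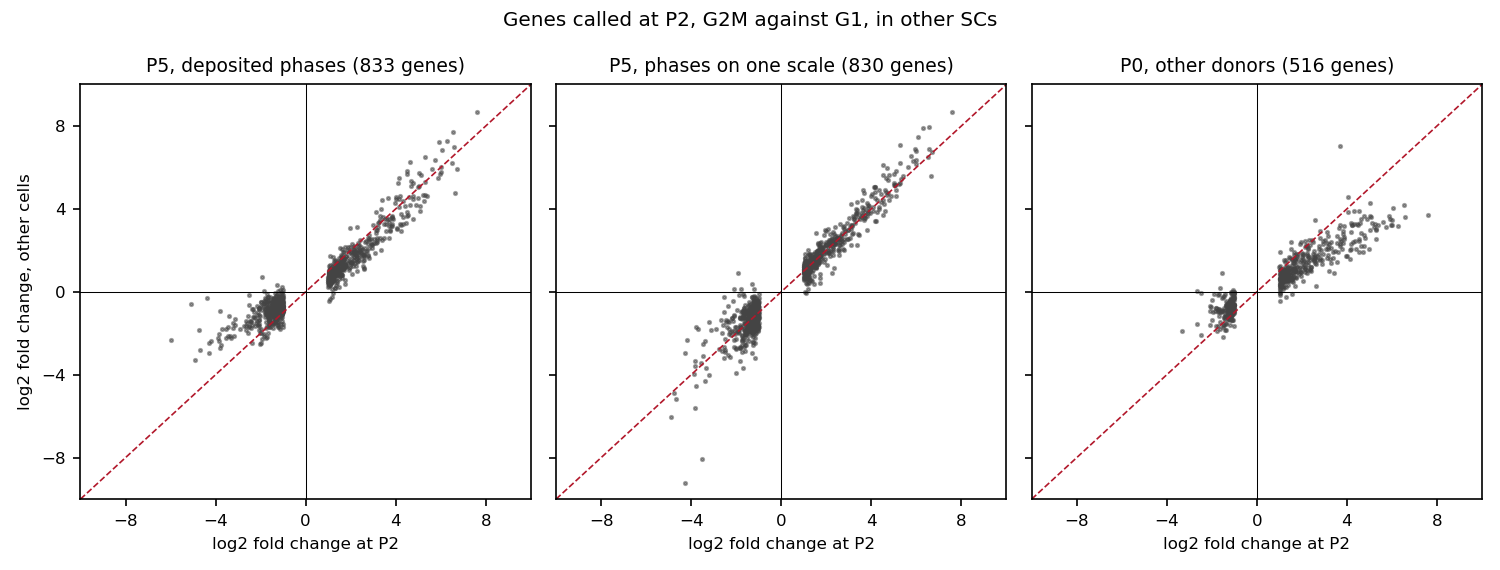
Log2FC of G2M against G1 at P2 (x axis) and in another comparison (y axis) for genes called at P2 and tested in both: P5 with deposited phases (833 genes), P5 with phases on a common scale (830) and P0 (516). Points on the dashed line have equal values, and most points lie on the same side of 0 on both axes. Genes called lower at P2 lie nearer to 0 at P5 with deposited phases and at P0. The genes were chosen by their values at P2, which by itself favours values nearer to 0 elsewhere.

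SCs were set against FAPs of donors 4, 7 and 8 at P2 by testing the difference of the 2 differences. It passed for 103 of 11674 genes (0.882%), 71 higher (0.608%) and 32 lower (0.274%), and 48 (0.411%) exceeded a log2 value of 1 as well. The balance of directions rests on single donors: 28 higher and 33 lower passed without donor 5, and 32 and 91 without donor 6. MYOG was lower in G2M by 2.42 in SCs and was at -0.25 (adjusted p = 0.62) in FAPs, where it lay between 1.84 and 4.19 CPM, a difference of -2.08 ± 0.37 (edgeR adjusted p = 0.012). Its UMIs in FAPs are taken as background above, so this difference restates the drop in SCs. EGR1 was lower in SCs by more than in FAPs (-1.44 and -0.44, difference -0.91 ± 0.15, adjusted p = 0.0095), and LMO7, an adherens junction protein, was lower in SCs and higher in FAPs (-0.65 and 0.54, adjusted p = 0.00066). ESCO2 (5.31 and 3.71, adjusted p = 0.0031) and PBK (4.99 and 3.74, adjusted p = 0.0080) differed more between phases in SCs, and KIF22 (2.81 and 4.16, adjusted p = 0.0019) and RAD21 (0.51 and 1.61, adjusted p = 0.00071) less. With all sums thinned to the smallest one ESCO2, PBK and KIF22 no longer passed, and MYOG did not pass without donor 7 (adjusted p = 0.15 in edgeR) or 8 (adjusted p = 0.059). Of 40 kinetochore genes 1 passed, of 39 replication genes 3, and of 50 commitment and fibre genes 3, all lower, at a median difference of -1.18. In FAPs alone only 28 of the fibre genes were abundant enough to test, at a median of -0.11. The direction of the fibre list here was thus largely set by the drop in SCs. Cell type, donors, sort and coating differ together here, and the G2M sum of FAP donor 8 rests on 34 cells and 900827 UMIs.

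The share of SCs in each phase was last compared between passages, with G1 again the class left over by the scores. With the deposited calls, 47.0%, 63.8% and 38.0% of SCs of donors 5, 6 and 10 were in G1 at P2, 23.3%, 17.5% and 29.6% in S and 29.7%, 18.7% and 32.4% in G2M, means of 49.6 ± 13.1%, 23.5 ± 6.03% and 26.9 ± 7.26% (SD, n = 3). Donor 6, the adult, had the most G1 and the fewest G2M cells. At P5 the 3 donors were closer together, at 57.1%, 58.2% and 53.5% in G1 and 17.9%, 20.4% and 23.5% in G2M, means of 56.3 ± 2.46% and 20.6 ± 2.82%. At P8 only 69 SCs were left, 8, 25 and 36 per donor, with 1, 2 and 2 of them in G2M. Their G2M share was 12.5% (exact binomial 95% interval 0.316 to 52.7%), 8.00% (0.984 to 26.0%) and 5.56% (0.680 to 18.7%). The change from P2 to P5 went in different directions among donors (G1 6.65 percentage points, exact sign-flip p = 0.50, adjusted p = 0.75), and the drop in G2M from P2 to P8 of 18.2 points was seen in 3 of 3 donors (p = 0.25, adjusted p = 0.75). The S share at P8 was 37.5%, 20.0% and 5.56%, higher than at P2 in 2 of 3 donors, which did not hold on the common scale given next. The G1 share was 50.0%, 72.0% and 88.9%.

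The deposited calls do not use 1 scale for the passages. Median G2M scores of the cells called G2M were 0.839 to 0.850 at P2 but 0.0770 to 0.151 at P5. Scoring the SCs of the 3 passages together with Seurat, chosen after the results were seen, gave the same phase for 96.2% of SCs at P2, 71.7% at P5 and 82.6% at P8. On that common scale G1 held 52.5 ± 12.8% of SCs at P2, 84.2 ± 0.989% at P5 and 93.7 ± 8.55% at P8, and G2M held 27.0 ± 7.36%, 7.87 ± 1.05% and 3.59 ± 4.06%. S held 20.6 ± 5.50%, 7.95 ± 0.962% and 2.67 ± 4.62%, and its share at P8 was lower than at P2 in each donor. G1 was higher at P5 than at P2 in 3 of 3 donors, by 31.7 ± 13.6 points, and G2M lower by 19.1 ± 7.51 points (exact sign-flip p = 0.25 each, the smallest possible). In cells thinned to 10000 UMIs the P5 shares were 83.7%, 8.15% and 8.14% for G1, S and G2M. The scoring genes, from which these calls are made, give no separate support. As a description, summed over all SCs of a donor, the G2M list went from a mean of 5018 CPM at P2 to 2218 at P5 and 1241 at P8, and the S list from 2008 to 969 and 568.

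**Figure D5:**
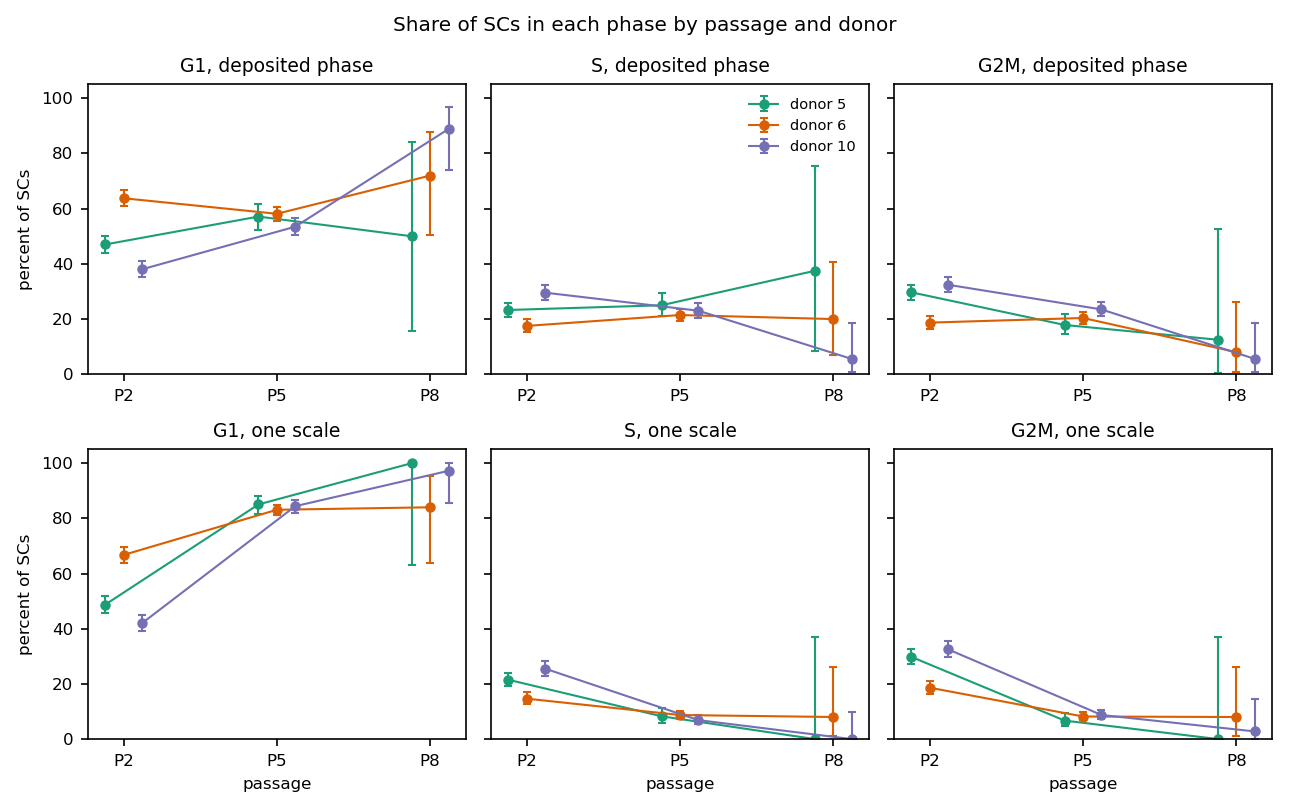
Percent of SCs in G1, S and G2M (panels) at P2, P5 and P8 (x axis) for donors 5, 6 and 10, with deposited calls (top) and calls on a common scale (bottom); bars are exact binomial 95% intervals, which cover counting error only. The deposited shares of P2 and P5 overlap among donors, whereas on the common scale G1 is above 83% in each donor at P5 and the intervals of P8 are wide.

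With phases on the common scale, G2M against G1 at P5 called 1027 of 10242 genes (10%), 472 higher (4.61%) and 555 lower (5.42%), against 577 with the deposited phases. Of the genes called at P2 and tested in both, 379 of 441 called higher (85.9% of the P2 genes, 80.6% of the P5 genes) and 249 of 389 called lower (64.0% and 45.5%) were called again. Fibre genes passed lower in 31 of 46 members, at a median of -0.98, where 19.8% of all genes passed lower.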

How the data were processed

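The authors mapped the libraries of 5 time points (10x Chromium 3′) to ARS-UCD1.2 with Cell Ranger 6.0.1, per the submitters' processing notes, and deposited raw UMI counts per gene and barcode (21880 genes, 16828 with a symbol, 68 symbols standing for several genes). Their methods assign barcodes to donors with demuxlet and filter cells by genes, UMIs and mitochondrial share. The cell tables gave donor, cell type and phase, the percent of mitochondrial UMIs as deposited, and the S and G2M score of each cell as deposited by the authors. Barcodes of 2 donors (19.6% at P2, 19.1% at P5, 45.9% at P8) had been set aside. Doublets within a donor are not found that way, and no other caller was run. Of the SCs compared here and their S cells, 3, 14, 10 and 2 carried a barcode sequence also found among cells of the libraries of fresh muscle, P0, P5 and P8. Another 33 columns of the cell tables were not used.

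Counts were summed per donor and phase (at least 20 cells) and compared with edgeR 4.0.16 in R 4.3.3 (TMM, filterByExpr, robust quasi-likelihood F test, 2-sided, donor as block, Benjamini-Hochberg over all genes). The SE of a log2FC was taken as its absolute value over the square root of the F statistic, and is not a spread between donors. The donor is the same animal in both phases, and deviations of same-donor sums from their phase means correlated at 0.77, 0.66 and 0.67 over 10456 genes. Phases were also called with Seurat 5.3.0 on P2, P5 and P8 together and in cells thinned to 10000 UMIs. Shares and medians were compared with exact sign-flip tests within donors. Alternatives were DESeq2 1.42.0, other scalings, no filter, thinning, other sets of cells and leaving out each donor. In data simulated for the P2 comparison (11161 genes, 200 changed), 93.5%, 96% and 96.8% of changes of 1, 1.5 and 2 on the log2 scale were found, with 4 false calls. For P5 and P0, 89.1% and 86.4% of changes of 1 were found, with 13 and 8 false calls (10440 and 8042 genes). Found and false calls were counted at an adjusted p below 0.05 alone. The simulation gave every gene the same assumed spread and changed far fewer genes than passed in the data, so its shares need not hold there.

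The cells and gene lists were chosen with earlier results of these data known. Genes named are the 12 with the largest fold in each direction among called genes, up to 4 members of each list with the smallest p, a fixed set of SC and G1 regulators, the 3 highest scoring genes of each phase and the 5 with the smallest adjusted p in each direction against FAPs, beside those said to be named after their values were seen. Some members of the lists are not reported here. Promoter sequences and genome positions were not analysed here.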

Additional observations from a re-analysis of the deposited data

Results flagged for a closer look

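The G2M-G1 log2 difference in SCs minus that in FAPs at P2 passed the test of the difference (edgeR, adjusted p below 0.05) for 15 of the genes named. It was below 0 for ACTN3 (-3.00), MYOG (-2.08), CA2 (-1.34), KIF22 (-1.26), LMO7 (-1.09), RAD21 (-1.01) and EGR1 (-0.91). For MYOG, whose UMIs in FAPs are taken as background, the value restates the drop in SCs. The difference was above 0 for NIBAN1 (1.73), ESCO2 (1.70), PLPP3 (1.45), NFIB (1.36), PBK (1.35), CIT (1.24), MCM3 (0.93) and DBF4 (0.90). CIT and MCM3 no longer passed without donor 5, 6, 4, 7 or 8, nor did MYOG without donor 7 (-1.68, adjusted p = 0.15) or 8 (-2.02, adjusted p = 0.059), CA2 without donor 4 (adjusted p = 0.064), or ACTN3 and DBF4 without donor 7 (adjusted p = 0.054 each). With all sums thinned to the smallest one, 10 of the 15 no longer passed, with LMO7, RAD21, EGR1, MYOG and NIBAN1 the exceptions.

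At P0, 1 of the 5 donors stood apart from the others (Dixon's test) in the G2M minus G1 difference of log2(CPM + 1) for 10 of 103 genes examined, where chance flags about 1 in 20. Donor 4 stood apart for ASF1B (1.55, the others 2.57 to 2.96), KNL1 (2.02, the others 3.47 to 3.79), RAD21 (-0.22, the others 0.83 to 1.18), CD14 (3.01, the others 0.07 to 0.81), CDKN2C (2.10, the others 0.94 to 1.24) and NFIB (0.80, the others 0.04 to 0.23). Its G1 sum was the smallest at P0, with 24 cells and 316889 UMIs, and the part of that in these values was not tested. Donor 8 stood apart for ESPL1 (3.66, the others 2.80 to 2.90) and NCAPD3 (2.64, the others 1.05 to 1.49), donor 7 for LMNB2 (1.43, the others 1.78 to 1.86) and donor 9 for PBK (1.67, the others 2.16 to 2.27).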

How the results depend on the processing

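The count of 1001 genes called in G2M against G1 at P2 ran from 780 to 1165 under DESeq2 (858), other size factors, no filter, thinning, other sets of cells and other phase calls, and from 941 to 1143 without 1 donor. Without the replicate block, which ignores the pairing by donor, it was 622 (394 in place of 655 for S), and scaled by the number of cells it was 1555, with 6457 genes passing higher and 618 lower. Genes passing numbered 2187 higher and 2323 lower, 1359 and 1477 by DESeq2, and 1091 and 535 without the block, where 12 of 50 fibre, 6 of 57 matrix and 0 of 21 identity genes passed lower. The cause was not tested beyond these settings. The blocked and unblocked counts at P5 (577 and 393) and P0 (352 and 345) differed by under 1.5 times, but genes passing fell from 3100 to 1055 at P5, with 106 in place of 265 called lower, and from 2483 to 1617 at P0. Among named genes 36 did not pass without the block, MYOG, DES and CDKN1C among them. Without donor 5 COX2, CSPG4, MYH11, ND1, NFIB, NIBAN1 and NOTCH3 did not pass, and without donor 10 CDKN1C, COX2, ND1 and NOTCH3. Per cell, where the median of all genes lay at 0.44, values were above 0 but below that median for ATP6 (0.32), CD14 (0.22), CD63 (0.013), CD81 (0.039), CDH15 (0.20), CDKN1A (0.012), COX1 (0.22), COX2 (0.31), ITGA5 (0.31), ITGA7 (0.12), MYF5 (0.0066), ND1 (0.26), PAX7 (0.39), PLPP3 (0.30), RPL10 (0.25), RPLP1 (0.24), RPS2 (0.27), RPS27 (0.21), TAGLN (0.085) and VWF (0.35). Genes near 0 changed sign elsewhere: CCNE1 with DESeq2 (-0.052), thinned sums (-0.062) or a margin around the score border (-0.19), CD163 with thinned sums (-0.35) or without cells of high UMI counts (-0.0063), MYOD1 with thinned sums (-0.021) or thinned cells (-0.021), and PAX7 with thinned sums (0.10). Without 1 donor in turn values ran from -0.29 to 0.32 for CCNE1, -0.62 to 0.20 for CD14, -0.27 to 0.40 for CD163, -0.094 to 0.13 for MYOD1, -0.51 to 0.21 for PAX7 and -0.57 to 0.31 for VWF. Of the genes whose difference differed from FAPs, 165 were called and 490 passed with no filter, 19 and 38 with thinned sums, and 25 to 61 and 36 to 160 without 1 donor. With phases on a common scale P5 called 1027 genes, and G1, S and G2M held 84.2%, 7.95% and 7.87% of SCs at P5 and 93.7%, 2.67% and 3.59% at P8. Called again in thinned cells these were 83.7%, 8.15% and 8.14%, and 97.9%, 0.0% and 2.08%, and deposited phases of cells with at least 10000 UMIs gave 96.7%, 0.0% and 3.27% at P8. Both of these P8 means weigh donors equally and rest on 1, 16 and 28 cells of donors 5, 6 and 10. The phases on a common scale, the cells of at least 10000 UMIs and the P0 comparison were chosen after the data were seen. SCs of the unsorted cultures at P2 had 13, 9 and 3 G2M cells, under the minimum of 20, and were not compared. Depth limits the low genes: 1 to 3 UMIs in a phase leave the wide counting intervals given above.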
